A study of Mus musculus with 6 samples.

Results

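The glucocorticoid-responsive genes are 10 genes that carry, switch on or answer the stress hormone signal: *Nr3c1*, *Hsd11b1*, *Fkbp5*, *Tsc22d3*, *Sgk1*, *Klf9*, *Zbtb16*, *Cdkn1a*, *Mt1* and *Mt2*. Their probes were chosen by gene symbol alone, without regard to signal, on an Illumina MouseRef-8 v2 array with 25697 probes of 18138 gene symbols. Of the 10 genes, 9 had a probe, with 15 probes in all, and *Zbtb16* was not analysed here. A probe was taken as detected on an array when its detection p, the chance of such a signal among negative control beads, was under 0.05. By that measure 13 of the 15 probes were detected on all 6 arrays, 1 on some arrays and 1 on no array.

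Total RNA came from cochlear tissue of 3 wild type (WT) mice and 3 *Cmah*-null mice, all labelled C57BL/6 (C57BL/6J in the study's methods) and 12 months old. *Cmah*-null mice lack the hydroxylase that makes the sialic acid Neu5Gc, in every tissue, and no mouse is labelled as treated. The comparison asks which genes differ in the cochlea of old mice without this enzyme. Sex, time of day at tissue collection, hormone level and pooling of animals are not given in the sources used here, so p values measure only the spread between these samples.

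Glucocorticoids, corticosterone in the mouse, enter cells and bind the glucocorticoid receptor, which then moves to the nucleus and binds DNA at glucocorticoid response elements. The receptor raises genes that dampen inflammation, steer salt transport and adjust metabolism, and it also raises *Fkbp5*, whose product lowers the receptor's affinity for hormone. In the inner ear the receptor is present in cochlear tissue, and glucocorticoids are given for sudden hearing loss. Several of these genes answer other signals as well, such as the circadian clock, metals or DNA damage.

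Deposited values were quantile-normalized log2 signals, and every difference below is a log2 signal in *Cmah*-null minus WT mice, tested over all probes with limma. The 13873 to 15223 probes detected per array were near in number, but *Cmah*-null replicate 3 stood apart. The SD of its log2 difference from each other array was 0.76 to 0.85, against 0.39 to 0.56 for the pairs among the others, except that *Cmah*-null replicates 1 and 2 differed by an SD of only 0.14. The squared difference of that pair had a median of 1.18 times its bead error variance, compared to 5.45 or more for every other pair. They are labelled as separate replicates and were counted so, and the study's methods give 3 mice per group, but the labels do not tie each array to a mouse of its own. For the glucocorticoid-responsive genes, values with the pair averaged to 1 sample are given where they change a call. For the pathway lists and tissue markers no p with the pair averaged is given. Calls among those genes are therefore not shown to hold with the pair averaged. As replicate 3 stood apart, differences without it are given beside those of the glucocorticoid-responsive genes. Such a fit leaves only the close pair in the *Cmah*-null group, so its SE and p values may understate the spread between mice. The 1 probe of *Cmah* itself lay near background, at 7.27, 7.28 and 7.87 in WT and 7.95, 7.98 and 7.27 in *Cmah*-null mice, and was detected on 1 WT and 2 *Cmah*-null arrays, so it could not check the genotype. Of the cochlear support and stria markers, 6 of 8 were detected, *Coch* and *Otos* among them. Of 5 hair cell markers 3 were detected on at least 3 arrays, *Otof* and *Myo7a* among them, while *Slc26a5* and *Pou4f3* were detected on no array. Of 4 neuron markers 2 were detected, *Nefm* and *Tubb3*, while *Snap25* and *Nefl* were detected on no array.

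Promoter sequence was read for the hormone and metal elements known for these genes. RefSeq windows on GRCm38.p6 were available for 8 of the genes, 16 windows in all, and were searched on both strands over the 250 bases upstream of each start. The full glucocorticoid response element was written as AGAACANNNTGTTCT and its single arm as TGTTCT, so that each full match also holds the arm. The full element was in 3 of 32851 windows of all genes (0.00913%), and 1 of those belonged to *Sgk1*. That match began 189 bases upstream of 1 of the 6 *Sgk1* starts in the table, and the stretch around it is shown because no other window of these genes held the full element, with the arms in capitals:
*Sgk1*, chr10:21993694-21993723, + strand: tgcggaaAGAACAgaaTGTTCTcggagatt
The arm was in 16.1% of all windows and in 4 of the 16 windows of these genes, which belonged to *Sgk1* and *Tsc22d3*. Metal response elements, written as TGCACNC or TGCGCNC, were in 21.4% of all windows and in 3 of these 16 (18.8%), shares that are near each other. *Hsd11b1* and *Mt1* held 1 each and *Mt2* held 3. Those of the neighbouring metallothionein genes are shown in capitals for comparison, the last of them read on the opposite strand:
*Mt1*, chr8:94179055-94179084, + strand: cggtcccgctgTGCACACtggcgctccagg
*Mt2*, chr8:94172384-94172413, + strand: agcatcgcctcTGCACCCggcccctcgggc
*Mt2*, chr8:94172479-94172508, + strand: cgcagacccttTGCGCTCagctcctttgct
*Mt2*, chr8:94172557-94172586, + strand: ggggggagggcGTGTGCAggctctgtccca
The windows of *Fkbp5*, *Klf9* and *Cdkn1a* held none of these motifs, and the *Fkbp5* window is given whole as the one upstream of the gene with the largest difference below:
*Fkbp5*, chr17:28486150-28486399, - strand: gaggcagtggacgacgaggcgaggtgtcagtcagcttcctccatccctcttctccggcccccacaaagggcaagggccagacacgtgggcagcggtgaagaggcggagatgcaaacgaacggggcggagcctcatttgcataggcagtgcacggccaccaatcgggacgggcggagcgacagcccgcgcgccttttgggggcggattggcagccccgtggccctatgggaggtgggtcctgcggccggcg
These matches describe letters only. Absence of a motif says no more than that the letters are not in this window.

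*Fkbp5*, *Sgk1*, *Klf9* and *Mt1* lay higher in every *Cmah*-null than in every WT mouse, and *Nr3c1*, the receptor gene, had lower values, though below detection in all *Cmah*-null mice. With median scaling the groups of *Sgk1* overlapped, while those of the bright *Tsc22d3* probe and of 2 *Cdkn1a* probes no longer did. That scaling moved the median of all detected probes to 0.30, and the share of all probes with groups apart under it was not counted. None of the 15 probes passed an adjusted p of 0.05. Across the array 0 of 25697 probes did (0%), and the smallest adjusted p was 0.250 over all probes and 0.534 among the members. At an unadjusted p under 0.05 there were 4 of the 15 probes (26.7%), all higher in *Cmah*-null mice, compared to 8.56% of all probes in either direction and 4.77% in the higher direction. At the study's threshold, a change of 1.5-fold and an unadjusted p under 0.05, 1 probe was higher and 0 were lower, compared to 1.30% and 1.41% of all probes. Here and below the p at that threshold comes from limma, so these calls are not the study's own. The study reported larger counts over the array in each direction. All 3 *Cmah*-null arrays were above all WT arrays for 4 of the 15 probes, compared to 9.11% of all probes and 11.5% of the 12410 probes detected on every array, and below them for 1, compared to 7.33%. That 1 was *Nr3c1*, whose *Cmah*-null values lay below detection. With so few probes, chosen with earlier results of these data known, these shares describe the genes and are not a test of them.

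Without *Cmah*-null replicate 3, 5 of the 15 probes had an unadjusted p under 0.05, again all higher, compared to 7.46% of all probes in that direction. The smallest adjusted p of a member was then 0.142. In this fit the *Cmah*-null group is only the close pair of replicates 1 and 2, so its p values may understate the spread between mice. With *Cmah*-null replicates 1 and 2 averaged to 1 sample, the limma fit kept *Fkbp5* and *Klf9* under an unadjusted p of 0.05, at 0.0242 and 0.0324, but not *Sgk1* and *Mt1*, at 0.0778 and 0.0612. Taking the brightest probe of each gene, 7 of 9 genes had a positive difference, with a median of 0.32, compared to 0.002 over all probes and 0.026 over probes detected on all arrays. The median was 0.36 without replicate 3. Scaling the raw signals to a common median, with no quantile step, raised it to 0.81, but moved the median of all detected probes to 0.30 as well.

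**Figure D1:**
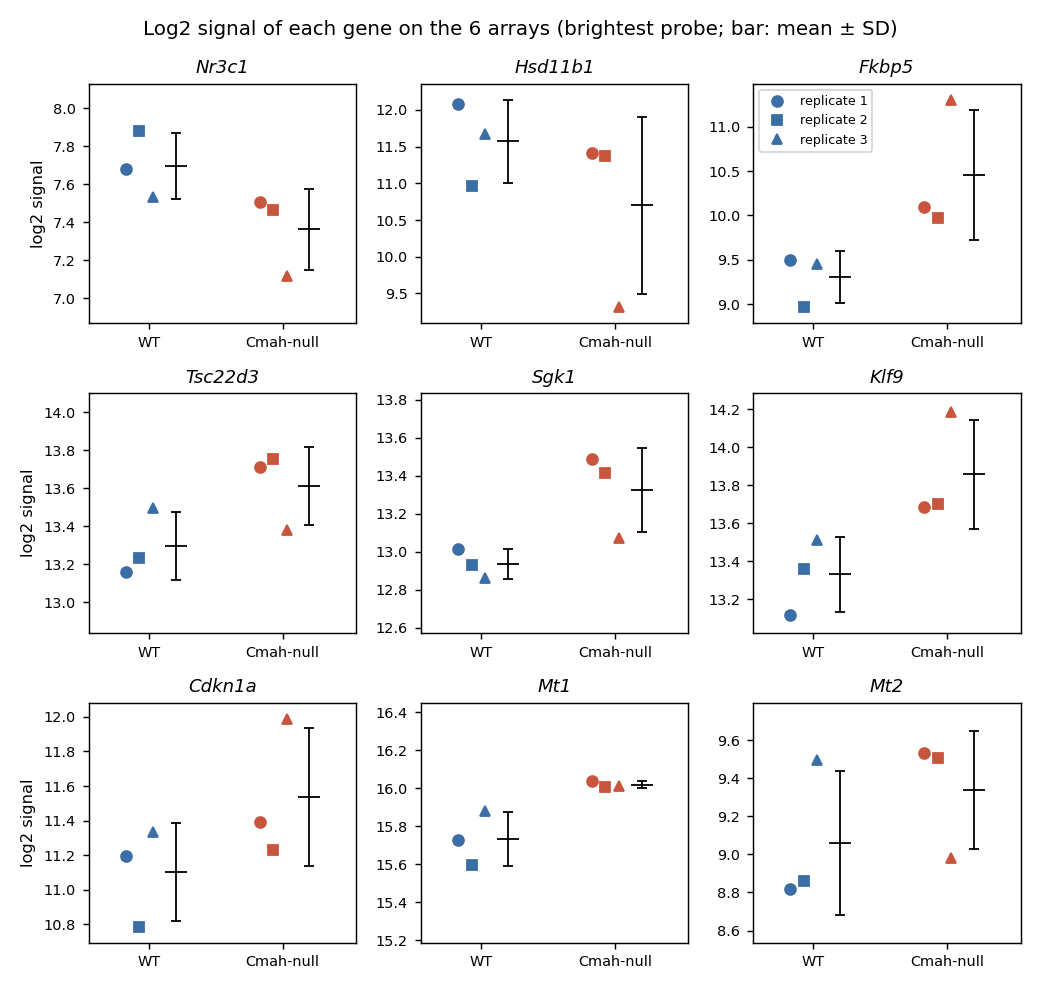
Log2 signal (y axis) of the brightest probe of each of the 9 genes on the 3 WT (blue) and 3 *Cmah*-null (red) arrays, with the marker shape giving the replicate number and the bar the mean ± SD. *Fkbp5*, *Sgk1*, *Klf9* and *Mt1* show no overlap with *Cmah*-null above WT, *Nr3c1* values in *Cmah*-null mice are all below detection, and replicate 3 lies well below the others for *Hsd11b1*.

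*Nr3c1* on chromosome 18 encodes the glucocorticoid receptor itself. Its probe read 7.68, 7.88 and 7.53 in WT and 7.50, 7.46 and 7.12 in *Cmah*-null mice on the log2 scale. The measured values did not overlap, though the lowest WT and the highest *Cmah*-null mouse differed by little. The probe was detected on all 3 WT arrays and on 0 of the *Cmah*-null arrays, so the level in *Cmah*-null mice is only bounded. For *Cmah*-null replicate 3 the bound, the lowest signal of a detected probe, was 7.57, above the 7.53 of WT replicate 3, so the groups are not shown to be apart. Between the means of these arrays the signal was at least 1.12-fold higher in WT mice. This takes for each *Cmah*-null array the lowest signal among detected probes where the probe's own was lower, and leaves out the spread between mice. The measured means were 7.70 and 7.36, a difference of -0.33 (SE 0.146, n = 3 and 3, limma adjusted p = 0.603). Without *Cmah*-null replicate 3 the difference was -0.21, and with background correction (neqc) it was -0.83.

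*Hsd11b1* on chromosome 1 encodes the enzyme that regenerates active corticosterone from its inert form inside cells, and it is abundant in liver and fat. Its brightest probe read 12.08, 10.96 and 11.68 in WT and 11.42, 11.37 and 9.31 in *Cmah*-null mice. Replicates 1 and 2 of the *Cmah*-null group lay within the WT range, and replicate 3 differed from their mean by -2.08. The mean was 11.57 ± 0.568 (SD) in WT and 10.70 ± 1.20 (SD) in *Cmah*-null mice, a difference of -0.87 (SE 0.639, n = 3 and 3, limma adjusted p = 0.737). It was -0.18 without replicate 3. The other detected probes differed by -0.82 and -0.73, which became -0.15 and 0.004 without replicate 3, but they share 38 and 32 of 50 bases with the brightest one and are not separate evidence. The remaining probe was detected on no array.

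Fat markers moved on the same array. Of 5 genes, 3 were detected, *Retn* was detected on no array and *Plin1* was not analysed here. Their summed signal on the linear normalized scale was 23840 to 49560 in WT mice, 48170 and 47110 in *Cmah*-null replicates 1 and 2, and 15820 in replicate 3. *Adipoq*, a hormone of fat cells, read 10.24 in replicate 3 and 12.69 to 13.75 on the other arrays. The part of fat in the *Hsd11b1* values was not tested. In whole tissue, fewer cells of a type and less RNA per cell cannot be told apart.

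*Fkbp5* on chromosome 17 encodes the co-chaperone that binds the receptor complex and restrains it, and its own induction by hormone closes a feedback loop. The probe read 9.49, 8.96 and 9.45 in WT and 10.10, 9.97 and 11.31 in *Cmah*-null mice. All *Cmah*-null mice were above all WT mice, and replicate 3 stood 1.27 above the mean of the other two. The mean was 9.30 ± 0.294 (SD) in WT and 10.46 ± 0.736 (SD) in *Cmah*-null mice, a 2.23-fold difference in signal. On the log2 scale it was 1.16 (SE 0.384, n = 3 and 3), with an unadjusted limma p of 0.0246 that did not hold over all probes (adjusted p = 0.542). It was the only one of the 15 probes at the study's threshold.

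Leaving out *Cmah*-null replicate 3 took the *Fkbp5* difference to 0.73, with an unadjusted limma p of 0.00850 and an adjusted p of 0.224. In the *Cmah*-null group those p values rest on the close pair of replicates 1 and 2 alone. Leaving out WT replicate 2, the lowest mouse, gave 0.99, and the unadjusted limma p was then 0.0813. With each probe's own variance in place of the moderated one it was 0.0648. Across the 14 alternatives the difference ran from 0.73 to 1.53, the unadjusted p was under 0.05 in 12, and the adjusted p ran from 0.101 to 0.960.

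**Figure D2:**
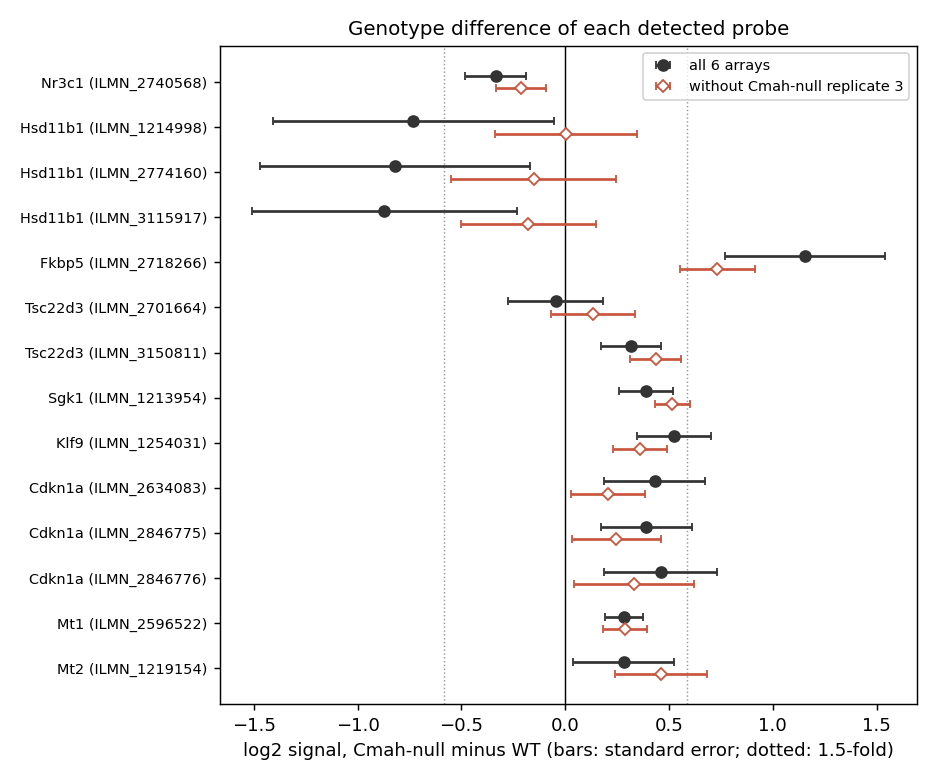
Log2 signal in *Cmah*-null minus WT mice (x axis) for the 14 detected probes, over all 6 arrays (black circles) and without *Cmah*-null replicate 3 (open red diamonds), with bars for the standard error and dotted lines at 1.5-fold. *Fkbp5* lies beyond 1.5-fold to the right in both, and the 3 *Hsd11b1* probes move from -0.87, -0.82 and -0.73 to near 0.

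*Tsc22d3* on chromosome X encodes GILZ, a leucine zipper protein that carries much of the anti-inflammatory action of glucocorticoids. Its bright probe read 13.16, 13.23 and 13.50 in WT and 13.71, 13.75 and 13.38 in *Cmah*-null mice. *Cmah*-null replicate 3 was inside the WT range, and the others lay above it. The difference was 0.32 (SE 0.145, n = 3 and 3, limma adjusted p = 0.621), and 0.44 without replicate 3, where the unadjusted limma p was 0.0143. The dimmer probe, which shares no bases with the bright one, read 8.47, 7.89 and 8.03 in WT and 8.11, 8.42 and 7.73 in *Cmah*-null mice, a difference of -0.05 (SE 0.229, limma adjusted p = 0.967). The probes are listed for different transcripts of the gene, and the difference between them was not tested.

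*Sgk1* on chromosome 10 encodes a kinase that raises sodium transport, and its promoter stretch with the full response element is printed above. It read 13.02, 12.93 and 12.86 in WT and 13.49, 13.42 and 13.07 in *Cmah*-null mice. WT mice were close together, and replicate 3 was the lowest *Cmah*-null mouse, just above them. The mean was 12.94 ± 0.0776 (SD) in WT and 13.32 ± 0.222 (SD) in *Cmah*-null mice. This 1.31-fold difference, 0.39 on the log2 scale (SE 0.129, n = 3 and 3), had an unadjusted limma p of 0.0244 and an adjusted p of 0.540. Without replicate 3 it was 0.52 (SE 0.0846, limma adjusted p = 0.142).

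*Klf9* on chromosome 19 encodes a zinc finger repressor that hormone induces quickly in many tissues. It read 13.12, 13.36 and 13.51 in WT and 13.69, 13.70 and 14.19 in *Cmah*-null mice. The groups did not overlap, and the highest WT mouse was WT replicate 3. The difference was 0.53 (SE 0.178, 1.44-fold, n = 3 and 3), with an unadjusted limma p of 0.0262 and an adjusted p of 0.545. Without *Cmah*-null replicate 3 it was 0.36 (SE 0.131). Of the 14 alternatives, 10 gave an unadjusted p under 0.05 for *Klf9*, 7 for *Sgk1* and 5 for *Mt1*.

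*Cdkn1a* on chromosome 17 encodes a cell cycle inhibitor that both glucocorticoids and p53 induce. The brightest of its 3 probes read 11.19, 10.79 and 11.33 in WT and 11.39, 11.23 and 11.98 in *Cmah*-null mice. The groups overlapped, with replicate 3 the highest of all. The difference was 0.43 (SE 0.242, n = 3 and 3, limma adjusted p = 0.676), and 0.21 without replicate 3. The other probes, which overlap this one by at most 2 bases, differed by 0.39 and 0.46 with overlap of the groups, and by 0.25 and 0.33 without replicate 3. With median scaling the brightest probe and the one at 0.39 no longer overlapped between groups (unadjusted limma p of 0.00471 and 0.0197). That scaling moved the median of all detected probes to 0.30, with 2409 probes higher and 79 lower at the study's threshold.

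*Mt1* and *Mt2* are neighbours on chromosome 8 and encode metallothioneins, small proteins that bind zinc and copper and that glucocorticoids and metals both induce. *Mt1* read 15.73, 15.60 and 15.88 in WT and 16.04, 16.004 and 16.01 in *Cmah*-null mice. WT mice varied, and the *Cmah*-null mice were nearly level, with an SD of 0.019. The difference was 0.28 (SE 0.0926, 1.22-fold, n = 3 and 3), with an unadjusted limma p of 0.0228 and an adjusted p of 0.534, and it was 0.29 without replicate 3. *Mt1* ranked 1st to 21st in raw signal among all probes of an array, and on *Cmah*-null replicate 1 it was the brightest probe. Quantile normalization gives the brightest probes of every array the same few top values, so the size of this difference and the closeness of the *Cmah*-null mice are limited by the top of the scale. Raw signals were 60925, 41169 and 47938 in WT and 69913, 67794 and 64433 in *Cmah*-null mice, and the difference was 0.42 with median scaling (limma adjusted p = 0.373). Saturation of beads is not recorded in the files.

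*Mt2* read 8.82, 8.86 and 9.50 in WT and 9.53, 9.51 and 8.98 in *Cmah*-null mice. WT replicate 3 sat with *Cmah*-null replicates 1 and 2, and *Cmah*-null replicate 3 with the other WT mice. The difference was 0.28 (SE 0.243, n = 3 and 3, limma adjusted p = 0.770), and 0.46 without replicate 3 (unadjusted limma p of 0.0891). The *Mt1* and *Mt2* probes share no run longer than 4 bases. With *Mt1* at the top of the scale, the size of its difference was not set against that of *Mt2*.

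Arrays also fell into sets by beads per probe. WT replicate 1 and *Cmah*-null replicates 1 and 2 had a median of 32 to 34 beads, and the other arrays 38 to 39. Each set has 1 array on one side, WT replicate 1 in the first and *Cmah*-null replicate 3 in the second, so the values within a set rest on single arrays. Of the 14 detected probes, 11 had the same sign within each set as over all arrays. *Fkbp5* differed by 0.54 among arrays with fewer beads and by 2.10 among those with more, *Klf9* by 0.57 and 0.75, *Sgk1* by 0.44 and 0.18, and *Mt1* by 0.30 and 0.27. *Mt2* turned sign, from 0.70 to -0.20, as did the dimmer *Cdkn1a* probes, from -0.07 to 0.84 and from -0.13 to 0.95. With the bead set as a block, *Fkbp5* differed by 1.32 (limma adjusted p = 0.191) and *Klf9* by 0.66 (limma adjusted p = 0.104). The 3 detected *Hsd11b1* probes then met the study's threshold as well, lower by this fit, at -1.35, -1.33 and -1.22 (unadjusted limma p of 0.0138, 0.00704 and 0.0314, and adjusted p of 0.174, 0.147 and 0.235). They share bases and are not separate evidence. Over all 25697 probes, those at that threshold rose from 697 to 1728 with this block, 855 higher and 873 lower. With no block and without *Cmah*-null replicate 3, the *Hsd11b1* probes differed by -0.18, -0.15 and 0.004.

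The rest of the pathway was read by lists of genes. Among 16 genes of hormone handling and the receptor complex, 9 were detected on at least 3 arrays, 2 with a positive and 7 with a negative difference, and none passed either threshold. Their median was -0.10, and -0.23 without replicate 3, and turned to 0.38 with median scaling, which moved all detected probes to 0.30. *Hspa8*, a chaperone that loads the receptor, read 11.96, 10.69 and 10.48 in WT and 10.07, 11.08 and 7.997 in *Cmah*-null mice, a difference of -1.33 (SE 0.845) that shrank to -0.47 without replicate 3. *Hsp90aa1* and *Hsp90ab1*, which encode the HSP90 chaperones that hold the receptor ready for hormone, differed by -0.49 and 0.36, and by -0.43 and -0.02 without replicate 3. *Hsd11b2*, which inactivates the hormone, and *Serpina6*, its carrier in blood, were detected on no array.

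Of 26 other genes known to be induced by glucocorticoids, 23 were detected, 15 with a positive and 8 with a negative difference. The median was 0.12, and -0.05 without *Cmah*-null replicate 3. The 1 that met the study's threshold was *Per2*, a core gene of the circadian clock. The brightest of its 3 probes, the only one described, read 10.86, 10.68 and 11.13 in WT and 11.96, 11.96 and 12.45 in *Cmah*-null mice. The groups were far apart, with a difference of 1.23 (SE 0.185, n = 3 and 3) and an adjusted limma p of 0.365, and it was 1.07 without replicate 3. *Lcn2*, an iron-carrier trap of acute phase responses, differed by 0.89 (SE 0.396) and *Angptl4*, an inhibitor of lipoprotein lipase, by -0.82 (SE 0.472), each with overlapping groups. Without replicate 3 they differed by 1.21 and -0.42. The groups did not overlap for 3 of the 23 detected genes, *Per2* among them, all higher in *Cmah*-null mice. For comparison, 11.5% of probes detected on every array had all *Cmah*-null arrays above all WT arrays.

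Of 12 genes known to be repressed by glucocorticoids, 5 were detected, and 6, *Il6*, *Ccl2* and *Tnf* among them, were detected on no array. Of the 5, 4 had a positive difference, with a median of 0.23, and 0.48 without *Cmah*-null replicate 3. The 1 that met the study's threshold was higher, *Icam1*, an adhesion molecule for leukocytes. It read 8.94, 9.42 and 9.82 in WT and 10.04, 9.96 and 10.48 in *Cmah*-null mice, without overlap, a difference of 0.77 (SE 0.257, n = 3 and 3, limma adjusted p = 0.545). The cytokine gene *Il1b* differed by 1.00 (SE 0.439) with overlap, and *Vcam1*, another adhesion molecule, by 0.23. Without replicate 3 *Icam1*, *Il1b* and *Vcam1* differed by 0.61, 1.42 and 0.48.

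Of 7 metal handling genes beside *Mt1* and *Mt2*, 4 were detected and none passed a threshold. *Mtf1*, the metal sensor that binds the metal response element, differed by 0.24 (SE 0.114) without overlap of the groups. The zinc transporters *Slc39a10* and *Slc30a1* differed by -0.23 and 0.20. Without replicate 3 the 3 genes differed by 0.12, -0.15 and -0.02. Among 12 relatives of the members, 10 were detected, and 2 met the study's threshold, both lower. *Cdkn1b*, the sister inhibitor of *Cdkn1a*, read 9.46, 9.51 and 9.60 in WT and 8.61, 8.98 and 7.72 in *Cmah*-null mice (difference -1.09, SE 0.316, limma adjusted p = 0.490). *Sgk3*, a kinase related to *Sgk1*, read 9.81, 9.81 and 9.26 in WT and 8.87, 8.80 and 8.996 in *Cmah*-null mice (difference -0.74, SE 0.170, limma adjusted p = 0.416). These were the brightest of 3 *Cdkn1b* and 7 *Sgk3* probes, and the others are not described. *Tsc22d1* differed by -0.54 with overlap. Without replicate 3 the 3 differed by -0.73, -0.79 and -0.18.

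**Figure D3:**
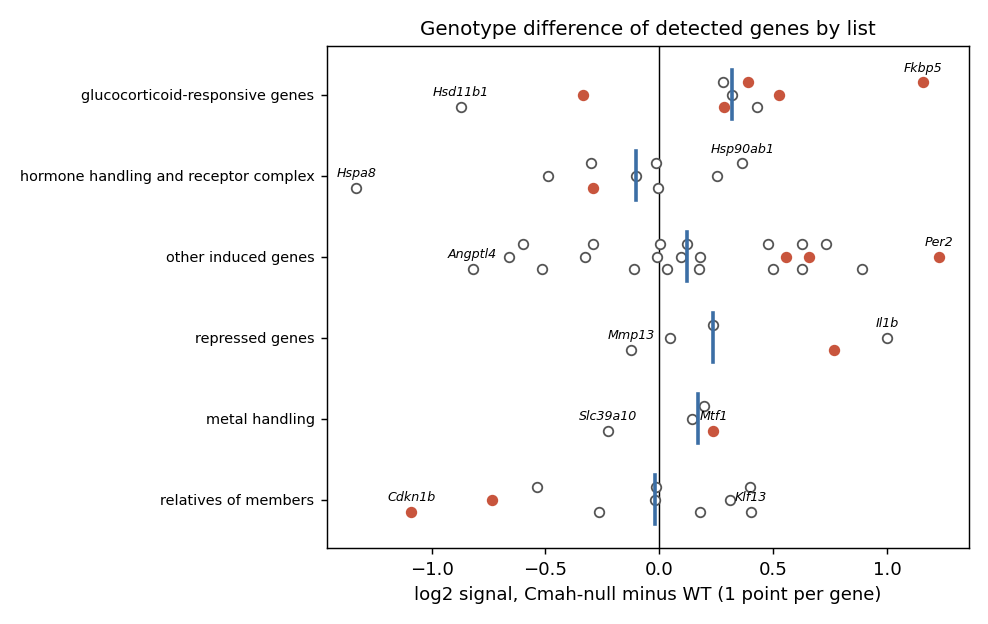
Log2 signal in *Cmah*-null minus WT mice (x axis) for the brightest probe of each detected gene, 1 point per gene, in rows for the glucocorticoid-responsive genes and the 5 pathway lists. Filled red points are genes whose measured groups did not overlap (*Nr3c1* below detection in *Cmah*-null mice) and blue bars are medians, which run from -0.10 for hormone handling (0.38 with median scaling) to 0.32 for the glucocorticoid-responsive genes; without *Cmah*-null replicate 3 the repressed genes had the highest median, 0.48, with 0.36 for the glucocorticoid-responsive genes. The lowest and highest gene of each row are named.

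Among markers of other tissue, the summed signals of brown fat were apart between the groups. The 4 brown fat markers were all detected, all had negative differences and 3 of them met the study's threshold. Their summed signals were 38390 to 61440 in WT and 13900 to 22470 in *Cmah*-null mice. The 4 epidermis markers were all detected with overlapping groups, with sums of 28700 to 111500 in WT and 94870 to 106900 in *Cmah*-null mice. Of these, *Krt10* read 11.73, 12.86 and 14.29 in WT and 13.67, 13.77 and 14.85 in *Cmah*-null mice. Of 6 leukocyte markers 4 were detected, 2 with a positive and 2 with a negative difference and overlapping sums of 93900 to 110200 and 87080 to 114900. Among them *Cd74* differed by 2.10 without overlap and *Lyz2* by -0.50 with overlap, and *Ptprc* was detected on no array. All 6 skeletal muscle markers had negative differences (sums of 147300 to 222100 and 150000 to 155200), and *Mb* met the study's threshold at -0.87. The 4 Schwann cell markers (34670 to 90050 and 37140 to 42700) and the 4 detected bone markers (9346 to 59840 and 17340 to 21600) had negative differences too, with overlapping groups. The 7 blood and marrow markers were mixed, 2 positive and 5 negative, with *Hbb-b1* at -1.004 without overlap. With median scaling several of the muscle, bone and Schwann cell markers turned positive, and the brown fat markers did not. Their part in the differences of the glucocorticoid-responsive genes was not tested.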

How the data were processed

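Cochlear RNA of 3 WT and 3 *Cmah*-null mice was hybridised to Illumina MouseRef-8 v2 arrays, 1 array per sample. The deposited raw table gives the intensity of each probe as its average bead signal with the bead standard error and number of beads, neither background-corrected nor normalized. Its detection p-value was exported with the signals, per the file headers. The deposited log2 values were quantile-normalized by the authors, and recomputing them from the raw signals gave a largest difference of 5.0e-07. Columns of the *Cmah*-null samples carry the name "old" in the files and were matched by group and number. Columns of the authors' own comparison, a fold change and test statistics, were not used.

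All 25697 probes were fitted in limma (version 3.58.1, under R version 4.3.3), a linear model per probe with a moderated variance, two-sided and without covariates, with Benjamini-Hochberg adjustment over all probes. A gene was read by its brightest probe over the 6 arrays. All probes of the 10 genes are described, and from each pathway list the 3 detected genes (on at least 3 arrays) with the largest absolute difference. Marker genes named beside a result were chosen after their values were seen. Members and lists were chosen with earlier results of these data known. The fit was checked on simulated data with independent arrays of equal spread for each probe. That simulation held no close pair and no array standing apart, so it does not show how those features affect the p values. Alternatives were background correction (neqc, offset 16), median scaling, detected probes only, a trended robust prior, no moderation, a replicate block, a bead number block, *Cmah*-null replicates 1 and 2 averaged, each array left out, and the mean of a gene's probes. The number of arrays limits the precision. *Cmah*-null replicates 1 and 2 were counted separately, as their labels give them, though the labels do not tie each to a mouse. Promoter windows came from RefSeq on GRCm38.p6. The genome build of the probe annotation is not given in the sources used here.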

Additional observations from a re-analysis of the deposited data

How the results depend on the processing

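No probe of these genes passed an adjusted p of 0.05 under any of the 14 alternatives. Of 196 differences of member probes under them, 192 kept their direction. Those that turned were the *Tsc22d3* probe ILMN_2701664, at 0.060 with median scaling, 0.12 without WT replicate 1 and 0.13 without *Cmah*-null replicate 3 (-0.21 to 0.13 with an array left out), and the *Hsd11b1* probe ILMN_1214998, at 0.0042 without *Cmah*-null replicate 3 (-1.10 to 0.0042). Member probes at 1.5-fold with an unadjusted p under 0.05 numbered 1, and 2 with neqc, 6 with median scaling, 0 without moderation, 5 with the bead number block, 2 with *Cmah*-null replicates 1 and 2 averaged, and 0 to 2 with an array left out. It was 0 without WT replicate 2, *Fkbp5* with *Cdkn1a* without WT replicate 1, *Fkbp5* with *Klf9* without WT replicate 3 or *Cmah*-null replicate 1 or 2 or with those averaged, and *Fkbp5* alone without *Cmah*-null replicate 3. The member genes there numbered 1, and 2, 5, 0, 3, 2 and 0 to 2. Over all probes the count was 697, and 1482 with neqc, 2488 with median scaling (2409 higher and 79 lower, against 334 and 363), 395 without moderation, 1728 with the bead number block and 429 to 1037 with an array left out, lowest without WT replicate 2. The replicate numbers did not pair the mice: deviations of same-numbered arrays correlated at 0.02, -0.17 and 0.01 over 12410 probes, and not every array correlated best with its own number. The replicate block gave 811 probes and 1 member probe, *Fkbp5*, and changed no call among the members at that threshold. By unadjusted limma p alone, *Nr3c1* (0.0286) and the brightest *Cdkn1a* probe (0.0272) also fell under 0.05 with it. The median of the member genes was 0.32, 0.81 with median scaling, which moved all detected probes to 0.30, and 0.27 to 0.42 otherwise. The cause of these changes was not tested. Signal over background limits *Nr3c1*, which was not detected in *Cmah*-null mice.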
